A study of Saccharomyces cerevisiae with 8 samples.

Results

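RNA polymerase II makes messenger RNA, and Mediator is the large complex that carries the signal of DNA-bound activators to it. The genes described here are those of the subunits of yeast RNA polymerase II and of the head, middle, scaffold and tail of Mediator. They were found by systematic name: 33 names were looked up among the 4928 deposited features, and 29 had a row. These are 11 of 12 polymerase genes and 18 of 21 Mediator genes. RPO21 (RPB1), NUT2 (MED10), PGD1 (MED3) and GAL11 (MED15) were not analysed here. Newly made RNA was measured by 4tU-seq, in which cells briefly build 4-thiouridine (4tU) into new transcripts, which are then purified and sequenced. All cells were of 1 Saccharomyces cerevisiae strain of mating type alpha with the alleles ura3Δ0, trp1Δ63, met15Δ0, lys2Δ0, leu2Δ0, his3Δ200 and ade2::hisG. In this strain SRB10, the gene of the Mediator kinase (SSN3 in gene tables, Cdk8 in animals), was replaced by KanMX, and the centromeric TRP1 plasmid pSH599 carried srb10as-1. This allele (Y236G) encodes a kinase that the ATP analogue 1-NA-PP1 can inhibit, so the DMSO cultures too lived on the mutant kinase. Cultures grew in YPD-Trp at 30 °C from an OD600 of 0.1 to 0.8.

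The 4 groups of 2 libraries each were 1-NA-PP1 under heat shock, DMSO under heat shock, 1-NA-PP1 at steady state and DMSO at steady state. Cells received 6 µM 1-NA-PP1 or an equal volume of the solvent DMSO for 12 minutes. The heat shock groups then spent 12 minutes at 37 °C, after which 5 mM 4tU was given for 5 minutes. Libraries were made from 100 ng RNA each. Nothing in the labels says whether replicates were separate cultures, so p-values measure the spread between these libraries, which may be technical. The study asked what inhibition of Srb10 does to transcription.

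Libraries held 14680275 to 17743527 counts under heat shock and 60372371 to 65134744 at steady state. Among the 29 genes the lowest count in any library was 130, for MED11, and the highest was 55423, and all 29 passed the filter on low counts that left 4901 genes for testing. ADE2, LEU2, MET17 and URA3, which the genotype lacks, had 0 counts in every library. The library 1-NA-PP1 steady state replicate 2 stood apart from the others of its temperature on the second principal component, which held 12.1% of the variance: it lay at 18.9, against -7.29 and -9.82 for the DMSO steady state libraries, with its own replicate 1 in between. For the 29 genes, the comparisons that use this library are also described with 1 library left out. Of the 29 genes, 15 overlap a feature on the opposite strand, by 3 to 292 bases. Whether counting used the strand is not given in the sources used here, so reads of RPB5, RPB8, RPB10, RPC10, RPB4, RPB9, SRB2, SRB5, SRB6, MED8, MED4, CSE2, SRB7, ROX3 and MED2 may in part come from that neighbour.

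As background, RNA polymerase II is built from 12 subunits. Rpb1 and Rpb2 form the active centre, Rpb3 and Rpb11 the platform on which the enzyme assembles, and Rpb4 and Rpb7 a stalk. Rpb5, Rpo26 (Rpb6), Rpb8, Rpb10 and Rpc10 (Rpb12) also belong to the polymerases of ribosomal RNA (I) and of transfer RNA (III). In Mediator the head touches the polymerase, the middle links head and tail and bears the site where the kinase module docks, Rgr1 (Med14) runs through all of them as a scaffold, and the tail binds activators. Srb10 is the kinase of that separable module.

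Levels were set side by side as CPM (counts scaled to library size) per kilobase of feature length. In DMSO cells at steady state they spanned 38.5-fold between the highest and lowest of the 29 genes. RPC10, whose small zinc-binding product serves all 3 polymerases, was highest at 786 ± 47.4 CPM per kilobase, and MED11, a small head subunit, was lowest at 20.4 ± 0.464 (SD, n = 2 here and below). RPC10 stood 3.21-fold above the next gene, SOH1 (MED31), at 244 ± 4.98. The ranges of the modules differed and in part overlapped. The polymerase II genes that serve no other polymerase had a median of 159 CPM per kilobase and lay between RPB7 at 56.8 ± 1.54 and RPB4 at 220.0 ± 14.8. Apart from RPC10 the shared subunits lay between RPO26 at 102 ± 8.77 and RPB5 at 159 ± 6.14, with a median over all 5 of 106. Head genes were lowest, with a median of 50.2, and reached no higher than SRB4 (MED17) at 86.9 ± 2.02. Middle genes had a median of 86.6, with MED4 at 34.3 ± 0.21 and SOH1 at the ends. RGR1 was at 131 ± 3.99. The 3 tail genes lay between SIN4 (MED16) at 126 ± 1.68 and MED2 at 244 ± 0.803, with a median of 162. The median of all genes tested was 74.5 CPM per kilobase.

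Per length, new RNA thus spanned a wide range within each complex. In DMSO cells at steady state it ran from 56.8 to 786 CPM per kilobase in the polymerase and from 20.4 to 244 in Mediator. In the order from MED11 to RPC10, 12 of the 28 steps between neighbours were smaller than the sum of their SDs. These steps joined SRB7, RPB11, SRB5, MED7 and SRB4 at 80.2 to 86.9 CPM per kilobase, ROX3, RPO26, MED1, RPB10 and RPB8 at 91.9 to 106, SIN4, RGR1 and RPB9 at 126 to 137, RPB5 and NUT1 at 159 and 162, and MED2 and SOH1 at 244. The steps below SRB7, and those that set RPB3, RPB2, RPB4 and RPC10 apart, were larger than that sum.

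**Figure D1:**
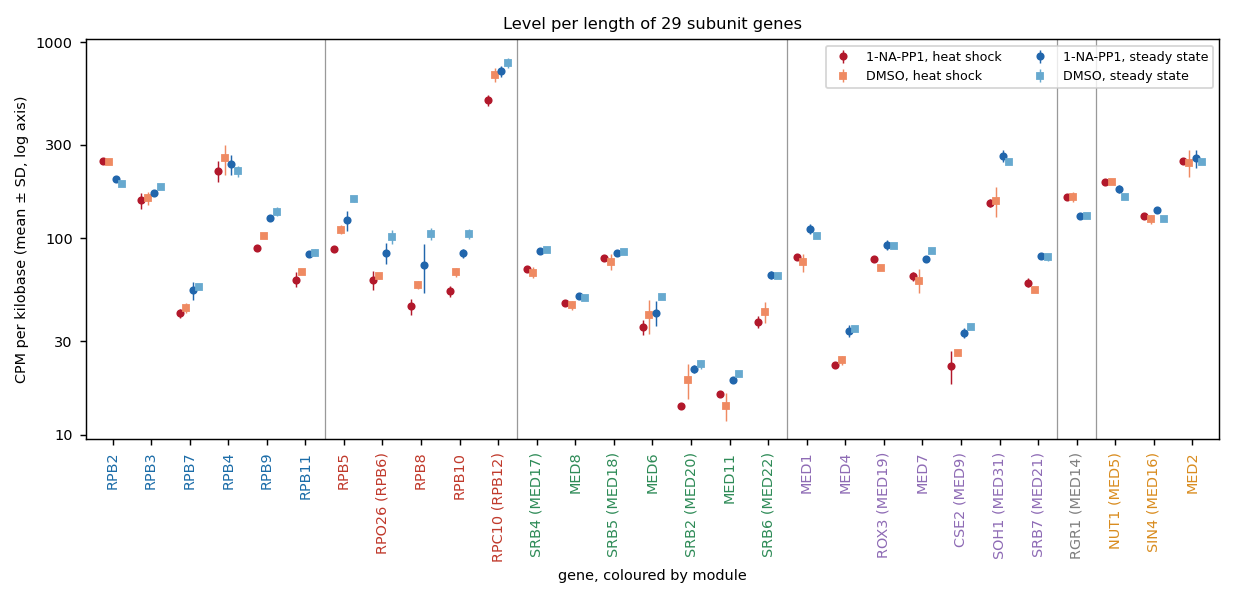
Level of each of the 29 genes in CPM per kilobase of feature length (log axis), as mean ± SD of 2 libraries, in the order 1-NA-PP1 heat shock, DMSO heat shock, 1-NA-PP1 steady state and DMSO steady state. RPC10 stands at the top in every group, head genes lie low, and RPB2, RGR1 and NUT1 are the genes whose 2 heat shock means both lie above both steady state means.

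Short motifs upstream of these genes were counted in each complex. Abf1 is a general regulatory factor that binds many yeast promoters and is known from those of ribosomal protein and transcription genes. Its core motif, TCA and ACG with any 6 bases between them, searched on both strands within 250 bases upstream of the deposited transcript start, was found for 8 of the 29 genes, 27.6%, against 16.2% of all 4928 features. It was found for 4 of 5 shared subunits (RPO26, RPB8, RPB10 and RPC10), for 3 of 6 genes of polymerase II alone (RPB2, RPB3 and RPB7), and for 1 of 18 Mediator genes, MED7. The share over the 29 genes is not particular to them. Among lists drawn up for comparison it was 28.6% for polymerase I genes (counting those shared with III) and 30.0% for polymerase III. For general transcription factors it was 33.3%, for elongation factors 37.5% and for polymerase assembly genes 28.6%. RPB5, the shared subunit without a match, also fell under heat shock, as given below, and a link between the motif and the changes was not tested. Stretches around the motif are shown for the genes with a match except RPB3 and RPB7. They were read from the R64 reference (RefSeq, the assembly of sacCer3), run 5′ to 3′ on the strand of the gene, and have the motif or its reverse complement in capitals:
RPO26, chrXVI:911086-911157, + strand: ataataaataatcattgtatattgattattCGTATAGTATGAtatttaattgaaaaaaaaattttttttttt
RPB8, chrXV:761410-761439, - strand: tttcatgttCGTCAGACGTGAtaggttttc
RPB10, chrXV:738123-738194, + strand: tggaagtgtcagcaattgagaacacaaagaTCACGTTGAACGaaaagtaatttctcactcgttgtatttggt
RPC10, chrVIII:387033-387104, + strand: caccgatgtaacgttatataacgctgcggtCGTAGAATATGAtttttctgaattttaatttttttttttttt
RPB2, chrXV:617023-617094, - strand: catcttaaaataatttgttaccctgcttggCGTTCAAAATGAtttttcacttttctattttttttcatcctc
MED7, chrXV:70146-70217, - strand: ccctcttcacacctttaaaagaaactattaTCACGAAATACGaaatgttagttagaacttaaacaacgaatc

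The stretch of RPB8 was shortened because a longer one runs into another feature. In RPO26, RPC10 and RPB2 a run of T lies downstream of the motif, and in RPB10 and MED7 it lies on the strand of the gene. The PAC motif CGATGAG, known from genes of ribosome synthesis and of RNA polymerases I and III, was in 0 of the 11 polymerase II windows, in 2 Mediator windows (ROX3 and MED6), in 5 of 7 windows of polymerase I genes (counting those shared with III), in 4 of 10 of polymerase III, and in 7.57% of all features. The Reb1 motif TTACCCG was in 4 windows (RPB11, RPB9, MED2 and NUT1; 9.17% of all features), and the stress response element AGGGG in 4 (RPB4, SRB6, SOH1 and SRB2; 19.6%). The heat shock element, searched as TTC, GAA and TTC with any 2 bases after each of the first 2 triplets, was in 0 of 29 windows, against 1.01% of all features. A match is only a run of letters, and no binding was measured.

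Heat shock against steady state addressed how a shift to 37 °C changes these RNAs, with the kinase inhibited and not. A gene was called when its adjusted p in edgeR's quasi-likelihood test (Benjamini-Hochberg over the 4901 genes) was under 0.05, and every log2 change is set against the bulk of genes by the scaling. In these bulk libraries, fewer cells making an RNA and less of it per cell cannot be told apart. With 1-NA-PP1, 2 of the 29 genes rose and 18 fell, against 25.3% and 28.1% of all genes (53.4% in either direction). With DMSO, 3 rose and 17 fell, against 29.6% and 28.9% of all genes (58.5%). In both settings 20 of the 29 genes were called and falls outnumbered rises. The median log2 change of the 29 genes was -0.39 with 1-NA-PP1 and -0.38 with DMSO, where that of all genes was -0.02 and -0.01. Libraries of both groups did not overlap for 23 genes in the lower and 3 in the higher direction with 1-NA-PP1 (40.0% and 36.5% of all genes), and for 23 and 3 with DMSO (43.0% and 40.9%).

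The genes that rose are long and encode large proteins. RPB2 (YOR151C, chrXV:612940-616933, - strand, build sacCer3 here and below), the second largest polymerase subunit, had 976 and 1003 CPM under heat shock against 799.7 and 807 CPM at steady state with 1-NA-PP1. With DMSO it had 965 and 988 CPM under heat shock against 759 and 758 CPM at steady state. The heat shock libraries were all higher than the steady state libraries. The log2 change was 0.30 ± 0.06 (SE; edgeR adjusted p = 0.00369) with 1-NA-PP1 and 0.36 ± 0.06 (adjusted p = 0.00122) with DMSO, and the call held without any 1 of the 8 libraries. RGR1 (YLR071C, chrXII:275238-278648, - strand), the Mediator scaffold, had 566 and 545 CPM under heat shock against 455 and 435 CPM at steady state with 1-NA-PP1. With DMSO it had 530.0 and 579 CPM under heat shock against 455 and 436 CPM at steady state, again with no overlap. Its log2 change was 0.32 ± 0.07 in both settings, with adjusted p = 0.00548 with 1-NA-PP1 and 0.00503 with DMSO. NUT1 (MED5, YGL151W, chrVII:217469-221007, + strand), a tail subunit, had 673 and 692 CPM under heat shock against 614 and 651 CPM at steady state with 1-NA-PP1, and 694 and 673 CPM against 582 and 565 CPM with DMSO. Its libraries did not overlap in either setting, but the log2 change of 0.11 ± 0.06 with 1-NA-PP1 was not called (adjusted p = 0.175), while that of 0.25 ± 0.06 with DMSO was (adjusted p = 0.00916).

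**Figure D2:**
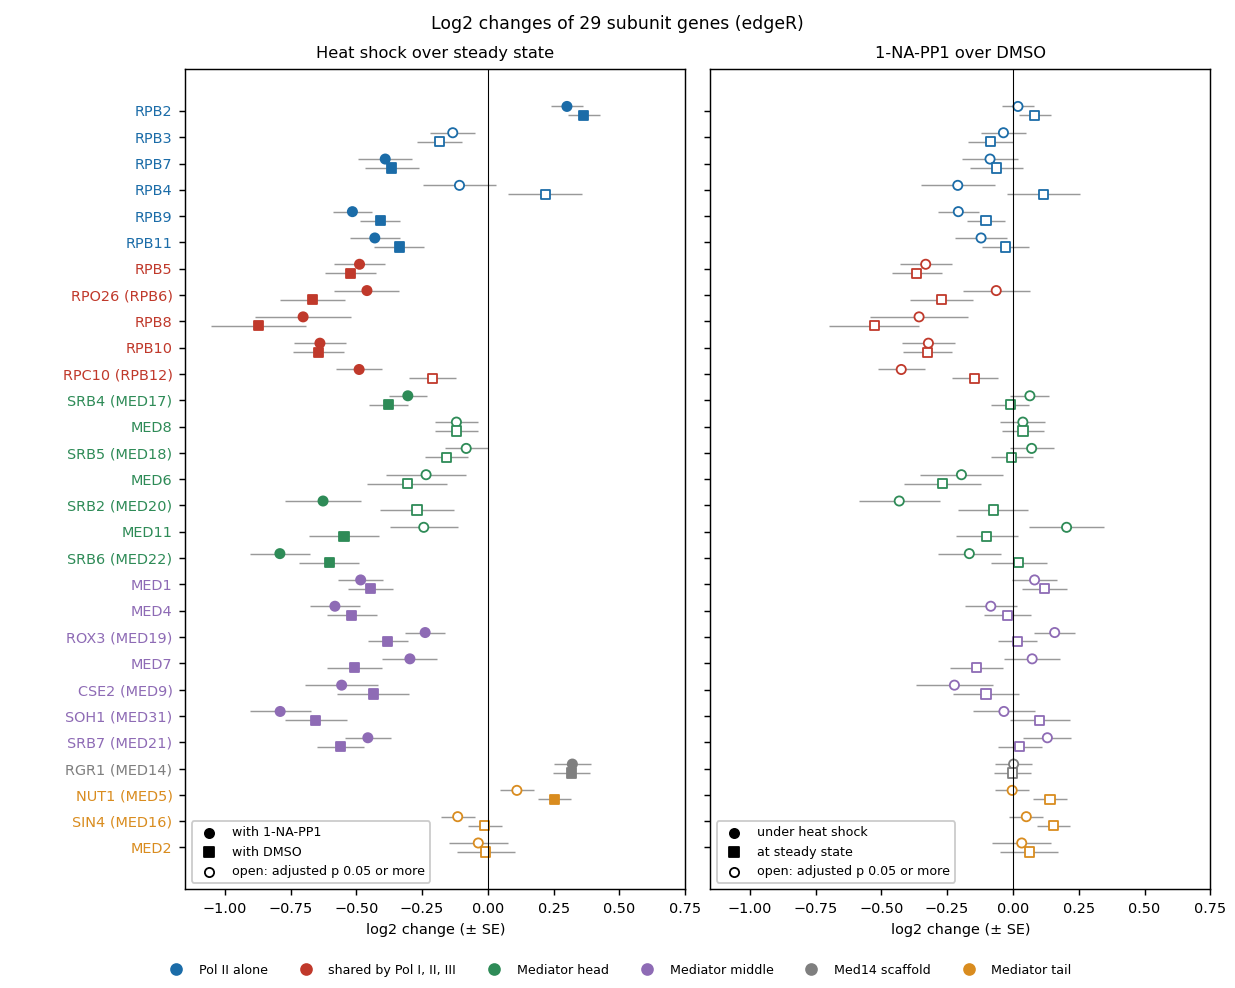
Log2 change ± SE of each gene in the 4 comparisons, heat shock over steady state on the left and 1-NA-PP1 over DMSO on the right, with filled symbols for genes called at an adjusted p under 0.05. Falls fill the shared and middle rows on the left, RPB2 and RGR1 are filled on the right of 0 in both settings, NUT1 with DMSO only, and every symbol of the right panel is open.

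The shared subunits had the lowest module medians, though with 1-NA-PP1 the middle of Mediator was nearly as low, at -0.48. With 1-NA-PP1 all 5 were called lower, with a median log2 change of -0.49, and with DMSO 4 of 5, with a median of -0.64. RPB10 (YOR210W, chrXV:738258-738828, + strand), a small subunit near the assembly platform, had 32.1 and 29.2 CPM under heat shock against 49.6 and 45.9 CPM at steady state with 1-NA-PP1. With DMSO it had 39.7 and 36.9 CPM under heat shock against 57.3 and 62.3 CPM at steady state. The groups did not overlap, and RPB10 fell by 0.64 ± 0.10 on the log2 scale in both settings (adjusted p = 0.00101 with 1-NA-PP1 and 0.000802 with DMSO). RPO26 (YPR187W, chrXVI:911241-911881, + strand), at the base of the clamp, had 36.2 and 42.5 CPM under heat shock against 58.8 and 49.4 CPM at steady state with 1-NA-PP1, and 40.0 and 42.3 CPM against 61.3 and 69.3 CPM with DMSO. The groups did not overlap, and RPO26 fell by 0.46 ± 0.12 (adjusted p = 0.0144) with 1-NA-PP1 and by 0.67 ± 0.12 (adjusted p = 0.00219) with DMSO. RPB8 was at -0.70 ± 0.18 with 1-NA-PP1 and at -0.87 ± 0.18 with DMSO, the lowest value of the 29 there. RPB5, which forms part of the jaw, was at -0.49 ± 0.10 with 1-NA-PP1 and at -0.52 ± 0.10 with DMSO. RPC10 was called with 1-NA-PP1 at -0.49 ± 0.09 and not with DMSO, at -0.21 ± 0.09 (adjusted p = 0.0695).

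Genes of polymerase II alone split. RPB2 rose, RPB7, RPB9 and RPB11 fell in both settings, and RPB3 and RPB4 were not called. RPB9 (YGL070C, chrVII:374128-374852, - strand), which works in start site choice and fidelity, had 64.7 and 64.6 CPM under heat shock against 91.3 and 93.5 CPM at steady state with 1-NA-PP1. With DMSO it had 76.0 and 73.3 CPM under heat shock against 95.5 and 103 CPM at steady state. Again no library of one temperature overlapped the other, and RPB9 fell by 0.51 ± 0.08 (adjusted p = 0.000767) with 1-NA-PP1 and by 0.41 ± 0.08 (adjusted p = 0.00208) with DMSO. The stalk genes went apart: RPB7 fell by 0.39 ± 0.10 with 1-NA-PP1 and by 0.36 ± 0.10 with DMSO, whereas RPB4 was at -0.11 ± 0.14 and 0.22 ± 0.14, with adjusted p = 0.537 and 0.21, and its DMSO heat shock libraries lay far apart at 232 and 181 CPM. RPB3 and RPB11, partners in the platform, were at -0.13 ± 0.09 and -0.43 ± 0.09 with 1-NA-PP1 and at -0.18 ± 0.09 and -0.34 ± 0.09 with DMSO. The median over the 6 genes was -0.26 in both settings.

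In the head of Mediator, 3 of 7 genes fell in each setting. SRB4 (YER022W, chrV:198791-200974, + strand), the largest head subunit and essential for most transcription, had 154 and 151 CPM under heat shock against 194 and 183 CPM at steady state with 1-NA-PP1. With DMSO it had 139 and 153 CPM under heat shock against 193 and 187 CPM at steady state, and the groups did not overlap in either setting. SRB4 fell by 0.30 ± 0.07 (adjusted p = 0.0089) with 1-NA-PP1 and by 0.38 ± 0.07 (adjusted p = 0.00271) with DMSO. SRB6 (MED22, YBR253W, chrII:723209-723663, + strand), a short subunit, had 16.2 and 18.0 CPM under heat shock against 30.5 and 28.6 CPM at steady state with 1-NA-PP1, and 20.7 and 17.5 CPM against 28.7 and 29.6 CPM with DMSO. It fell by 0.79 ± 0.11 (adjusted p = 0.000721) with 1-NA-PP1 and by 0.60 ± 0.11 (adjusted p = 0.00237) with DMSO, with no overlap in either setting. The third call was SRB2 (MED20) with 1-NA-PP1, at -0.63 ± 0.14, and MED11 with DMSO, at -0.55 ± 0.13. MED8, SRB5 (MED18) and MED6 were not called and lay between -0.31 and -0.08. The head medians were -0.24 with 1-NA-PP1 and -0.31 with DMSO.

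In the middle of Mediator 7 of 7 genes fell in both settings, with medians of -0.48 with 1-NA-PP1 and -0.51 with DMSO. Heat shock libraries lay below steady state libraries without overlap in each of the 7, in both settings. SOH1 (MED31, YGL127C, chrVII:270245-270826, - strand), a small conserved subunit that binds Med7, had 91.1 and 85.2 CPM under heat shock against 145 and 159.8 CPM at steady state with 1-NA-PP1. With DMSO it had 79.3 and 101 CPM under heat shock against 140.0 and 144 CPM at steady state. SOH1 fell by 0.79 ± 0.12 (adjusted p = 0.000806) with 1-NA-PP1 and by 0.65 ± 0.12 (adjusted p = 0.00179) with DMSO. MED4 (YOR174W, chrXV:658645-659726, + strand), an essential subunit, had 24.2 and 24.7 CPM under heat shock against 34.8 and 38.4 CPM at steady state with 1-NA-PP1, and 26.9 and 24.9 CPM against 37.0 and 37.3 CPM with DMSO. MED4 fell by 0.58 ± 0.09 (adjusted p = 0.0013) with 1-NA-PP1 and by 0.52 ± 0.09 (adjusted p = 0.00204) with DMSO. SRB7 (MED21, YDR308C, chrIV:1077919-1078490, - strand), which forms a hinge with Med7, had 32.8 and 35.2 CPM under heat shock against 45.5 and 47.8 CPM at steady state with 1-NA-PP1, and 30.9 and 31.2 CPM against 44.4 and 47.2 CPM with DMSO. It fell by 0.46 ± 0.09 (adjusted p = 0.00306) with 1-NA-PP1 and by 0.56 ± 0.09 (adjusted p = 0.000971) with DMSO.

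MED1 (YPR070W, chrXVI:685857-687944, + strand), the longest middle gene analysed, had 166 and 167 CPM under heat shock against 223 and 243 CPM at steady state with 1-NA-PP1, and 146 and 169 CPM against 218 and 211 CPM with DMSO. It fell by 0.48 ± 0.09 (adjusted p = 0.00207) with 1-NA-PP1 and by 0.45 ± 0.09 (adjusted p = 0.00267) with DMSO. CSE2 (MED9), MED7 and ROX3 (MED19) fell by 0.24 to 0.56 with 1-NA-PP1 and by 0.38 to 0.51 with DMSO. In the tail, SIN4 was at -0.11 ± 0.06 and -0.01 ± 0.06, and MED2 at -0.04 ± 0.11 and -0.01 ± 0.11, with 1-NA-PP1 and DMSO in that order, and neither was called. Within Mediator the order of medians was therefore middle, head, tail, with RGR1 above 0, in both settings. Differences between modules are given by counts and medians only and were not tested.

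**Figure D3:**
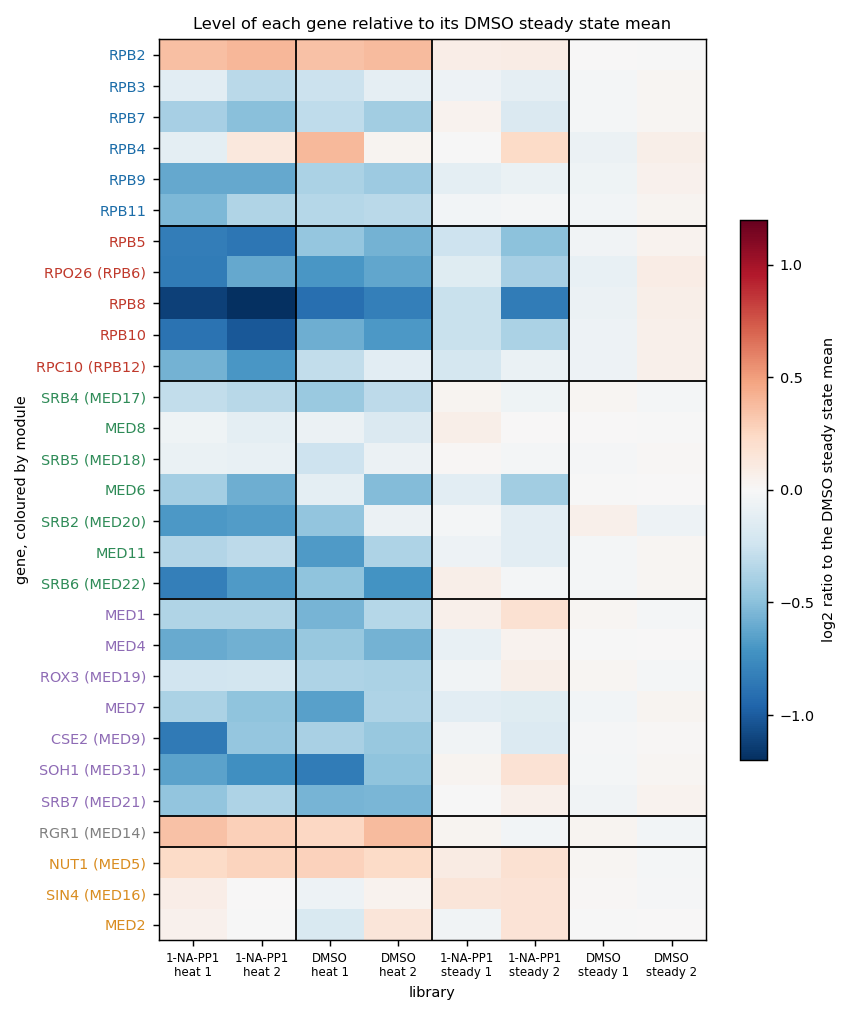
Log2 ratio of each gene in each of the 8 libraries to its own mean over the DMSO steady state libraries, with heat shock on the left and DMSO steady state at the far right. The shared and middle rows are below 0 in all 4 heat shock libraries, palest for RPC10 in DMSO replicate 2 (-0.13), and RPB2, RGR1 and NUT1 are red there. The shared rows are also below 0 in both 1-NA-PP1 steady state libraries, from -0.08 for RPC10 to -0.83 for RPB8, both in replicate 2.

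The same calls were largely made in both settings: 18 genes were called in both, of 20 called with 1-NA-PP1 and 20 called with DMSO. The settings share no libraries, but both were tested in 1 model with a common estimate of spread, so their calls are not independent. Across the 29 genes, which are not independent replicates, the changes of both settings correlated with Pearson's r = 0.869 and Spearman's rho = 0.808, against 0.892 and 0.852 over all 4901 genes. RPC10 and SRB2 were called with 1-NA-PP1 and not with DMSO, and MED11 and NUT1 with DMSO and not with 1-NA-PP1. The difference itself, tested as an interaction, was called for 0 of the 29 genes, against 0.0204% of all genes (edgeR), with 0 genes at an unadjusted p under 0.05 (13.5% of all genes) and 0 called by DESeq2 (0.488%). The smallest adjusted p was 0.373, for RPC10, whose heat shock change was lower with 1-NA-PP1 by 0.28 (95% interval of the difference -0.57 to 0.01). SRB2 differed by -0.36 (-0.82 to 0.11), RPB4 by -0.33 (-0.78 to 0.13) and MED11 by 0.30 (-0.12 to 0.73). These intervals still hold sizeable differences. For RPB2 the interval was narrower, -0.26 to 0.13, and for RGR1 it was -0.22 to 0.23. With any 1 library left out, the differences of the 29 genes lay between -0.50 and 0.54, and 15 of them changed sign in some fit.

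RPB2, RPB5, RPB9, RPB10, SRB6, SRB7, SOH1, MED1 and MED4 kept their calls in both settings whichever of the 8 libraries was left out. With 1-NA-PP1, some calls depended on 1 library. Without either 1-NA-PP1 heat shock library a smaller share of all genes was called too, so such losses are not particular to these genes. RGR1, RPO26 and CSE2 were not called without 1-NA-PP1 heat shock replicate 1, RPB8 and SRB4 without replicate 2 of that group, and RPB7 without that replicate 2 or 1-NA-PP1 steady state replicate 1. MED7 was called in 2 and ROX3 in 3 of the 8 fits. Without 1-NA-PP1 steady state replicate 2, the library that stood apart, MED7 and ROX3 were the calls lost. With DMSO, some calls depended on 1 library as well, and a smaller share of all genes was called without any 1 of the 4 DMSO libraries. RPB7 and RPB11 were not called without either DMSO steady state library and CSE2 without any 1 of the 4 DMSO libraries. RGR1 was not called without DMSO steady state replicate 2, at 0.29, or DMSO heat shock replicate 2, at 0.18. MED11 was not called without DMSO steady state replicate 2. NUT1 was called in 4 of 8 fits and was lost without DMSO steady state replicate 2, DMSO heat shock replicate 1 or either 1-NA-PP1 heat shock library, at 0.17 to 0.23. Calls were also gained with DMSO: RPC10 was called in 5 of the 8 fits and RPB3 in 3. SRB2 and SRB5 were called without DMSO heat shock replicate 2, at -0.56 and -0.33, and MED6 without DMSO heat shock replicate 1, at -0.59.

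The scaling matters for the sign of the rises and for the calls. Factors deposited by the authors shift the median of all genes to -0.66 with 1-NA-PP1 and to -0.32 with DMSO, so under them RPB2 was at -0.34 and 0.06 and RGR1 at -0.32 and 0.01, none of them called. The falls with 1-NA-PP1 were not called either (0 of 29 genes, smallest adjusted p = 0.101, against 4.21% of all genes), while 23 of 29 genes were called lower with DMSO (42.0% of all genes). Relative to those medians RPB2 was 0.32 and 0.38 higher and RGR1 0.34 and 0.34 higher than the bulk of genes, and the module medians were -0.49 and -0.64 for the shared subunits, -0.45 and -0.48 for the middle, and -0.23 and -0.31 for the head. In the authors' deposited tables of heat shock over steady state, 0 of the 29 genes were higher and 14 lower with 1-NA-PP1 (1.14% and 18.0% of all genes), and 0 higher and 23 lower with DMSO (8.88% and 41.8%). The authors' deposited tables put the median of the 29 genes at -1.04 and -0.68 in these settings, where that of all genes was -0.66 and -0.32.

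The length of a gene moved with its change under heat shock. The 29 features are 450 to 3993 bases long with a median of 852, against 1430 for all features. Across the 29 genes the log2 change and the length had Spearman's rho = 0.706 with 1-NA-PP1 and 0.647 with DMSO, and across all genes 0.357 and 0.269, as a description of genes that share these libraries. Genes of up to 750 bases had a median change over all genes of -0.34 with 1-NA-PP1 and -0.26 with DMSO, while those over 3000 bases had 0.23 and 0.20. RPB2, RGR1 and NUT1, the genes that rose, are 3993, 3410 and 3538 bases long. RPB2 and RGR1 were 0.07 and 0.09 above the median of their length class with 1-NA-PP1, and 0.16 and 0.11 above it with DMSO. NUT1 was 0.12 below it with 1-NA-PP1 and 0.05 above it with DMSO. SIN4, at 3062 bases, was 0.35 and 0.21 below it.

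Set against genes of their own length class, most genes of every module except the scaffold lay low, and the shared and middle genes had the lowest median distances. With 1-NA-PP1, 5 of 5 shared and 6 of 7 middle genes were below the median of their class, and over each module the median distance from it was -0.25 and -0.21. With DMSO 4 of 5 and 7 of 7 were, and the median distance was -0.38 and -0.30. In the head 5 of 7 genes were below with 1-NA-PP1 and 7 of 7 with DMSO (median distances -0.12 and -0.16). For polymerase II alone 4 of 6 were below in both settings (-0.11 and -0.10), and in the tail 3 of 3 and 2 of 3 (-0.12 and -0.01). MED1, SRB4 and MED4 lay far below their classes. MED1, at 2087 bases, was 0.64 below its class with 1-NA-PP1 and 0.58 below it with DMSO. SRB4, at 2183 bases, was 0.46 and 0.52 below, and MED4, at 1081 bases, was 0.58 and 0.52 below. RPB4 was 0.13 and 0.44 above its class. The part of length in these changes was not tested.

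**Figure D4:**
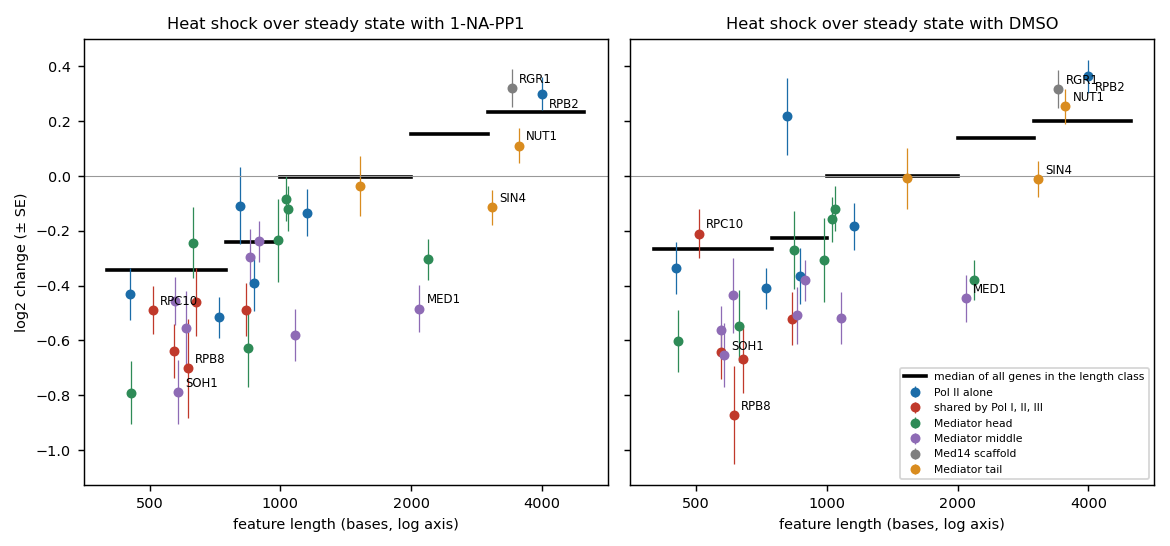
Log2 change under heat shock (± SE) of each of the 29 genes against the length of its feature (log axis), with 1-NA-PP1 on the left and DMSO on the right, where black bars mark the median of all genes in 5 length classes. RPB2 and RGR1 lie above the bar of the longest class, and MED1 lies far below the bar of its class in both panels.

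Inhibition of the kinase was compared next. At steady state, 1-NA-PP1 against DMSO, 0 of the 29 genes were called in edgeR's test, as were 0.0% of all genes. At an unadjusted p under 0.05, 3 were lower and 1 higher, against 15.0% and 17.8% of all genes (32.8% in either direction), and DESeq2 called 3 lower and 0 higher, against 12.0% and 9.04% (21.0% in either direction). The 3 lower genes, RPB5, RPB10 and RPB8, are shared subunits in both counts. All 5 shared subunits had a log2 change below 0, with a median of -0.33, while the genes of polymerase II alone had a median of -0.04, the head of -0.01, the middle of 0.02, RGR1 of 0.00 and the tail of 0.14. The median of all genes was 0.05.

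RPB5 had 112 and 94.1 CPM with 1-NA-PP1 against 129 and 136 CPM with DMSO at steady state. RPB10 had 49.6 and 45.9 CPM with 1-NA-PP1 against 57.3 and 62.3 CPM with DMSO. RPB8 had 53.8 and 36.0 CPM with 1-NA-PP1 against 61.4 and 68.0 CPM with DMSO. Both 1-NA-PP1 libraries lay below both DMSO libraries in these 3 genes and in all 5 shared genes, and replicate 2 was the lower of the 1-NA-PP1 libraries in 4 of the 5, RPC10 being the exception. Their log2 changes were -0.37 ± 0.09 (edgeR adjusted p = 0.0687), -0.33 ± 0.09 (adjusted p = 0.0718) and -0.53 ± 0.17 (adjusted p = 0.0851), and DESeq2 gave adjusted p = 0.00844, 0.0138 and 0.0269. RPO26 was at -0.27 ± 0.12 and RPC10 at -0.15 ± 0.09. SIN4, a tail subunit, had 427 and 431 CPM with 1-NA-PP1 against 389 and 382 CPM with DMSO, a log2 change of 0.15 ± 0.06 (adjusted p = 0.14). Libraries of both groups did not overlap for 11 of the 29 genes in the lower and 5 in the higher direction, against 28.0% and 44.7% of all genes.

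The size of the shared subunits' shift depended on the library that stood apart. The median over the 5 genes was -0.25 in replicate 1 and -0.40 in replicate 2 of 1-NA-PP1 relative to the DMSO mean. Without replicate 2, 0 of the 29 genes were called and the shared median was -0.25. Without replicate 1, RPB5, RPO26, RPB8 and RPB10 were called lower, as were 16.5% of all genes, and the shared median was -0.40. In every fit and scaling run, the shared median lay below that of all genes: the deposited factors put it at -0.57, where the median of all genes was -0.21.

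At steady state the intervals of SRB4 and RGR1 lay around 0. SRB4 had 194 and 183 CPM with 1-NA-PP1 against 193 and 187 CPM with DMSO, a log2 change of -0.01 (95% interval -0.18 to 0.16), and RGR1 had 455 and 435 CPM against 455 and 436 CPM, a change of 0.00 (-0.16 to 0.16). Among head genes MED6 had the lowest value, -0.27 ± 0.15 (adjusted p = 0.241). The middle genes lay between -0.14 and 0.12.

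Genes of the other polymerases gave values in the same direction as the shared subunits. Of 7 polymerase I genes (counting those shared with III), 7 were below 0 with 1-NA-PP1 at steady state, with a median of -0.64, and of 10 polymerase III genes 10 were, with a median of -0.43. At an unadjusted p under 0.05, 7 of the 7 and 9 of the 10 were lower, against 15.0% of all genes. In replicates 1 and 2 of 1-NA-PP1 the medians were -0.40 and -0.92 for polymerase I and -0.28 and -0.57 for polymerase III. The smallest adjusted p in both lists was 0.0679, and 0 were called. RPA34, RPC53 and RPC34, with the smallest p, were at -0.64 ± 0.14, -0.51 ± 0.10 and -0.74 ± 0.16. The shared subunits thus lay between the genes of polymerase II alone and those of polymerases I and III, a description that was not tested. The part of the other polymerases' genes and of replicate 2 in the shared subunits' values was not tested.

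**Figure D5:**
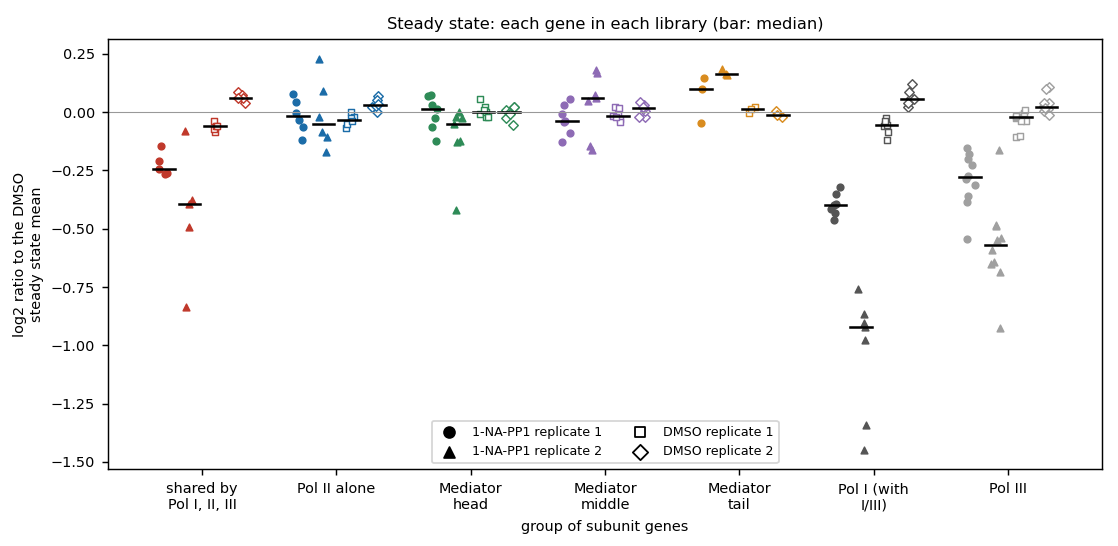
Log2 ratio to the DMSO steady state mean of every gene in each steady state library, for 7 groups of subunit genes, with filled symbols for 1-NA-PP1, open symbols for DMSO and a bar at the median of each library. The medians of the shared, polymerase I and polymerase III groups lie below 0 in both 1-NA-PP1 libraries, lower in replicate 2, while those of polymerase II alone, the head and the middle are near 0 and those of the tail are above it.

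Under heat shock, 1-NA-PP1 against DMSO, 0 of the 29 genes were called by edgeR, against 0.326% of all genes (0.204% higher and 0.122% lower). At an unadjusted p under 0.05, 0 were higher and 5 lower, against 7.79% and 7.1% of all genes (14.9%), and DESeq2 called 1 gene, RPC10, lower (adjusted p = 0.00292), against 4.76% of all genes, 2.67% higher and 2.09% lower. The shared subunits again had the lowest module median, -0.33, against -0.10 for polymerase II alone, 0.04 for the head, 0.07 for the middle and 0.00 for all genes. RPC10 had 269 and 246 CPM with 1-NA-PP1 against 325 and 365 CPM with DMSO. Its groups did not overlap, and its log2 change was -0.42 ± 0.09 (edgeR adjusted p = 0.0876). RPB5 had 74.1 and 72.6 CPM with 1-NA-PP1 against 95.6 and 89.0 CPM with DMSO, and RPB10 had 32.1 and 29.2 CPM against 39.7 and 36.9 CPM. Their changes were -0.33 ± 0.10 (adjusted p = 0.177) and -0.32 ± 0.10 (adjusted p = 0.199).

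SRB2, a head subunit, had 11.7 and 11.9 CPM with 1-NA-PP1 against 13.7 and 18.3 CPM with DMSO under heat shock, a log2 change of -0.43 ± 0.15 (adjusted p = 0.25). Its DMSO libraries differed more from each other than the lower of them did from 1-NA-PP1. SRB4 and RGR1 were at 0.06 ± 0.07 and 0.00 ± 0.07. Without 1-NA-PP1 steady state replicate 1 or replicate 2, libraries that are in no group of this comparison but enter its estimate of spread, RPB5 and RPC10 were called lower, as were 2.66% and 2.7% of all genes. Under heat shock the polymerase I and III genes had medians of -0.17 and -0.03, and 0 of 17 had an unadjusted p under 0.05. Their difference from the steady state values was above 0 for 17 of 17, had an unadjusted p under 0.05 for 2 of 7 and 5 of 10, against 13.5% of all genes, and was called for 0 (smallest adjusted p = 0.357). Its steady state side rests in part on 1-NA-PP1 replicate 2, with polymerase I and III medians of -0.92 and -0.57, against -0.40 and -0.28 in replicate 1. The part of that library in the difference was not tested. Groups did not overlap for 9 of the 29 genes in the lower and 3 in the higher direction, against 22.8% and 23.2% of all genes. With factors from the deposited file for this comparison, which repeats the numbers of the DMSO file, the median of all genes was 1.98, and the shared median was 0.34 below it.

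Other proteins of the transcription machinery, taken from lists drawn up for comparison, moved in both directions under heat shock, as all genes did. Of all genes, 25.3% rose and 28.1% fell with 1-NA-PP1, and 29.6% rose and 28.9% fell with DMSO. Of 18 general transcription factor genes, 3 rose and 1 fell with 1-NA-PP1, and 4 rose and 1 fell with DMSO. Among them TFB4, of the factor TFIIH, was at -0.77 ± 0.11 and -1.06 ± 0.11, and TFG2, of TFIIF, at 0.31 ± 0.07 and 0.36 ± 0.07. Of 16 elongation factor genes, 3 rose and 4 fell with 1-NA-PP1, and 4 rose and 3 fell with DMSO. Both medians of the factor lists lay between -0.05 and 0.04, where those of the 29 genes were -0.39 and -0.38. Of 7 genes for assembly of the polymerase, 3 rose and 1 fell with 1-NA-PP1, and 2 rose and 0 fell with DMSO, with GPN2 at 0.59 ± 0.08 and 0.44 ± 0.08. Polymerase I genes gave 0 rises and 1 fall of 7 with 1-NA-PP1, and 0 and 4 with DMSO. Polymerase III genes gave 2 rises and 2 falls of 10 with 1-NA-PP1, and 0 and 6 with DMSO. Of the kinase module, SSN3, carried by the plasmid, and SSN8, its cyclin, were analysed: SSN3 fell by 0.27 ± 0.09 with 1-NA-PP1 (adjusted p = 0.0364) and was at -0.16 ± 0.09 with DMSO. SSN8 was at 0.05 ± 0.09 and 0.14 ± 0.09 and was not called.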

How the data were processed

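Raw counts of reads per transcript feature were deposited by the authors for 8 libraries, 2 in each of 4 groups, on the build sacCer3. The submitters' processing notes name STAR 2.5.2b, cutadapt 1.9.1, HTSeq, DESeq2 and SAMtools. In the authors' normalised tables each value is a signal, made from the counts with a factor for each library. Those factors were deposited as a ratio, with one library at 1. Per the file headers, the authors' heat shock tables hold a log2 fold change, its standard error and an adjusted p-value. Feature coordinates are those the authors deposited. All 29 genes matched RefSeq by systematic name.

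Counts were tested in R 4.3.3 with edgeR 4.0.16: filterByExpr, TMM scaling, 1 quasi-likelihood model of the 4 groups over 8 libraries, two-sided, with Benjamini-Hochberg adjustment over 4901 genes. DESeq2 1.42.0, other scalings, no filter, a replicate block and each library left out were alternatives. An exact permutation test of 2 against 2 libraries reaches no p below 0.33. The script was checked on simulated data. Values in every library are given for SRB4 and RGR1, chosen by role, and per comparison for up to 6 rising and 6 falling called genes with the smallest p and no overlap, or the 4 with the smallest p where none was called. Members and lists were chosen with earlier results of these data known.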

Additional observations from a re-analysis of the deposited data

How the results depend on the processing

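Called genes of the 29 were 0 for 1-NA-PP1 over DMSO at steady state, 3 with DESeq2, and 0 to 4 without 1 library. Under heat shock they were 0 (0.326% of all genes), then 1 with DESeq2 (4.76%) and 29 with the deposited factors (99.9%). They were 0 (0.0% of all genes) with the factors that the deposited normalised counts imply, an alternative chosen after seeing the data. At both temperatures the calls for 1-NA-PP1 over DMSO changed in some fits without 1 library. Heat shock over steady state with 1-NA-PP1 gave 20 (53.4% of all genes), and 0 with the deposited factors (4.21%). These factors set the median of all genes at -0.21 and 1.98 for 1-NA-PP1 over DMSO without and with heat shock, and at -0.66 and -0.32 for heat shock with 1-NA-PP1 and DMSO. They reversed 11 of the 29 genes at steady state, among them SIN4 (-0.10). For 1-NA-PP1 over DMSO under heat shock the deposited factors repeat the numbers deposited for heat shock over steady state with DMSO. They differ from those that the normalised counts imply, which put the median of all genes at -0.62. There the deposited factors reversed 17, among them RPC10 (1.55), RPB5 (1.65), RPB10 (1.64), SRB2 (1.55), RPO26 (1.94) and RPB8 (1.61). For heat shock they reversed RPB2 (-0.34), RGR1 (-0.32) and NUT1 (-0.52) with 1-NA-PP1, and NUT1 (-0.057) and RPB4 (-0.11) with DMSO. By construction they shift all genes alike within a library. Without 1 library, signs changed for 12 genes in 1-NA-PP1 over DMSO at steady state, for 10 under heat shock, RPO26 (-0.17 to 0.055) among them, for 15 in the difference, for RPB4 (-0.24 to 0.013) and MED2 (-0.14 to 0.071) in heat shock with 1-NA-PP1, and for RPB4 (-0.035 to 0.31), MED2 (-0.25 to 0.084) and SIN4 (-0.14 to 0.0024) with DMSO. The cause of the sign changes without 1 library was not tested.

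The labels pair no replicate numbers. Deviations of same-numbered libraries correlated with r = -0.31 (1-NA-PP1 and DMSO at steady state), 0.00088 (under heat shock), 0.26 (heat shock and steady state with 1-NA-PP1) and 0.03 (with DMSO). With a replicate block, 0, 0, 19, 21 and 0 genes were called in 1-NA-PP1 over DMSO at steady state, under heat shock, heat shock with 1-NA-PP1, with DMSO, and their difference. Of all genes, 0.0%, 0.0816%, 50.9%, 56.8% and 0.0% were called in that order. Heat shock libraries are shallower, and 2 libraries a group limit every comparison.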
